A study of Mus musculus with 2 samples.

Results

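The 10 genes described here encode the core of cytokine signalling through Janus kinases (JAK) in macrophages: the kinases Jak1, Jak2 and Tyk2, the transcription factors Stat3, Stat5a, Stat5b and Stat6, and the feedback inhibitors Socs1, Socs3 and Cish. They were chosen by name, as the genes that carry IL-4, IL-6, IL-10 and GM-CSF signals, and all 10 were found among the 20330 gene identifiers of the expression table. Of these, 9 reached an FPKM (fragments per kilobase of transcript, scaled to the size of the library) of 1 or more in either library and were compared, out of 10297 genes compared in all. Socs1 was under that level in both libraries.

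Adipose tissue macrophages (ATM) were sorted by flow cytometry as cells bearing F4/80 and CD11b from visceral fat of C57BL/6 mice on a high-fat diet for 12 weeks. The KO library came from hMRP8cre+;Hif-1αfl/fl;ApoE-/- mice and the WT library from hMRP8cre-;Hif-1αfl/fl;ApoE-/- mice, so by their labels both lacked ApoE and both carried floxed Hif-1α alleles. Cre was driven by the human MRP8 (S100A8) promoter, a myeloid promoter not specific to macrophages, and the share of sorted cells that had recombined was not analysed here. The labels give neither age nor the number of animals pooled. There was 1 library per genotype, so no value has a replicate error, no p-value is given, and every difference is one between these libraries.

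A cytokine receptor has no kinase activity of its own. When it is bound, the JAKs attached to its chains phosphorylate it and then the STATs that dock there, which pair, enter the nucleus and activate target genes. IL-4 signals mainly through JAK1, JAK3 and STAT6 towards the alternatively activated state, IL-6 and IL-10 through STAT3, and GM-CSF through JAK2 and STAT5. SOCS proteins and CIS, the product of Cish, are induced by the STATs and switch the same receptors off.

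The FPKM values summed to 585823 in WT and 568329 in KO, and the smallest recurring step of FPKM times length put the depth near 5870000 fragments for the WT library and 7470000 for the other. All 12 of the macrophage markers found in the table reached 1 FPKM on both sides and none differed by 3-fold, beside 13.6% higher and 13.7% lower over all genes compared and 2.14% either way among those at a mean of 100 FPKM and over, where 10 of the 12 lie. Hif1a had 30.4 FPKM in the WT library against 20.97 in KO. That value covers the whole gene, and the floxed exon was not analysed here, so it does not test the deletion. Apoe, disrupted in both genotypes by the labels, was nevertheless listed at 94.3 and 117 FPKM, again over the whole gene, and the disrupted part was not analysed here. The labelled loss of ApoE is therefore not shown by these values.

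Markers of other cells differed between the libraries. Of the 11 neutrophil markers in the table, 8 reached 1 FPKM in either library and all 8 had the larger value in KO. Retnlg, Ngp and Lcn2 entered only through their KO values, so the filter fixed their direction. The other 5 reached 1 FPKM in each library, with differences from 0.34 to 2.23 on the log2(FPKM + 1) scale. The median over all genes compared was 0.03, and the share of all genes with the larger value in KO was not counted. The list summed to 198 FPKM for WT and 580 FPKM for KO, with S100a8 at 73.3 and 182 FPKM and S100a9 at 63.4 and 301 FPKM, with the granule genes Lcn2 at 0.960 and 9.79 FPKM and Ngp at 0 and 2.61 FPKM. The granule genes Camp, Ltf and Mmp8 were listed at 0 in both. The purity of the sort on F4/80 and CD11b was not analysed here. Of 6 eosinophil markers in the table, Siglecf, Epx, Prg2 and Il5ra were listed at 0 in both libraries, and the list summed to 6.50 FPKM for WT and 33.1 FPKM for KO, led by Alox15 at 6.50 and 25.7 FPKM. Fewer cells of a type and less RNA per cell cannot be told apart in bulk samples, and the part of other cells in the values of Cish, Jak2, Il6 and Socs3 was not tested.

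Most of the JAK, STAT and SOCS genes were at similar levels in WT and KO macrophages. Of the 9 compared, 8 lay within 3-fold on the log2(FPKM + 1) scale, 1 was higher in KO (Cish) and 0 were lower. Over all genes compared, 13.6% were higher and 13.7% were lower by this rule. The median difference, KO minus WT, was 0.18 for the 9 genes and 0.03 for all genes compared. The median size of the difference regardless of direction was 0.18 and 0.87, respectively. In WT, 7 of the 9 genes stood above the median level of the genes compared. A smaller share of genes passed 3-fold at higher levels, so each gene is set below beside the genes of its own level.

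**Figure D1:**
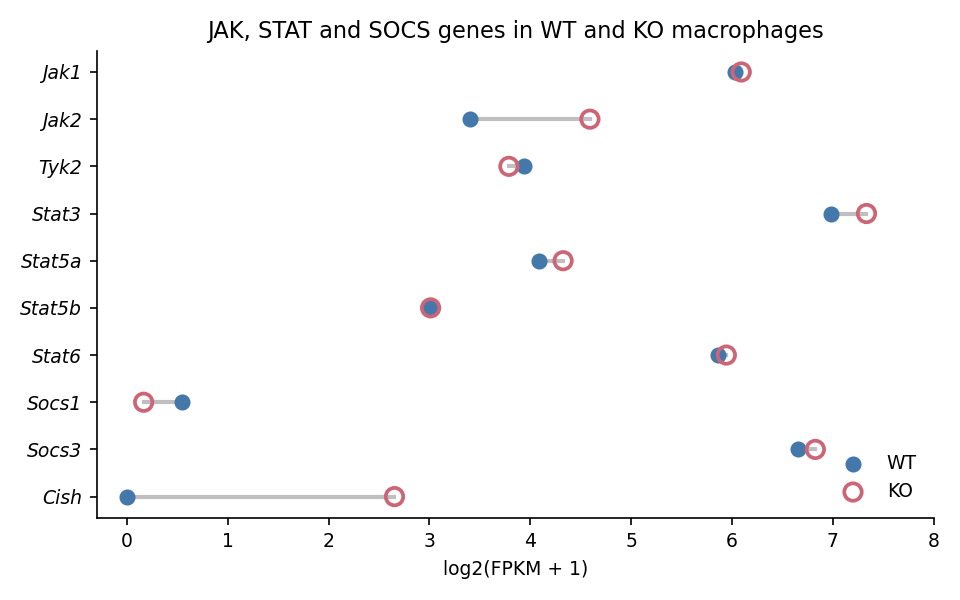
Level of each of the 10 genes in the WT library (filled points) and the KO library (open circles), as log2(FPKM + 1), with 1 library per genotype and hence no error bars. The points of Jak1, Tyk2, Stat3, Stat5a, Stat5b, Stat6 and Socs3 lie close together, whereas Jak2 was at 9.58 and 23.1 FPKM and Cish had a 0 for WT and 5.29 FPKM for KO.

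The kinases came first. Jak1 (chromosome 4), which serves nearly all of these receptors, stood at 64.3 FPKM for WT and 67.2 for KO, a difference of 0.06 on the log2(FPKM + 1) scale. Tyk2 (chromosome 9), the partner kinase of IL-10 and type I interferon receptors, measured 14.4 FPKM (WT) and 12.8 FPKM (KO), a difference of -0.15. These 2 kinases were therefore almost at the same level in both libraries.

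Jak2 (chromosome 19), the kinase bound to the GM-CSF receptor and also used by the IL-6 and interferon-γ receptors, had 9.58 FPKM in the WT library against 23.1 in KO. The ratio was 2.41 and the difference 1.19, which did not reach 3-fold. It was the widest difference among the 8 genes that reached 1 FPKM in each library. About 251 fragments of the WT library and 771 of the KO library lay behind these values, so counting error was small beside the difference. Among the 3746 genes with a mean FPKM of 5 to 20, however, the middle 50% of differences ran from -0.85 to 0.88 and the middle 90% from -3.30 to 3.33. Jak2 was outside the first range and well inside the second.

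Set against the fourth kinase of the family, which was not among the 10 genes, the balance of JAK transcripts was dominated by Jak3. Jak3, the kinase bound to the common γ chain of the IL-4 receptor, stood at 130 FPKM for WT and 117 for KO. It made up 59.5% of the JAK total for WT and 53.2% for KO, Jak1 made up 29.5% and 30.5%, and Jak2 made up 4.39% and 10.5%. The sum of the 4 kinases was 218.0 FPKM for WT and 220.3 FPKM for KO. Jak3 is also abundant in T and NK cells. Of the 8 markers of those cells in the table, 6 were listed at 0 in both libraries, Cd3e, Cd3d and Cd3g among them. The others were Cd2, at 23.6 FPKM for WT and 29.3 for KO, and Il7r, at 5.82 and 11.9 FPKM. The list summed to 29.4 FPKM for WT and 41.2 FPKM for KO. The part of such cells in the Jak3 values was not tested.

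The STATs were examined next. Stat3 (chromosome 11), which carries the signals of IL-6 and IL-10, was the highest of the 10 genes in both libraries, at 125 FPKM (WT) and 160 FPKM (KO). Its ratio was 1.28 and its difference 0.36 on the log2(FPKM + 1) scale. In the class of 748 genes with a mean FPKM of 100 or more, where the libraries agreed best, the middle 50% of differences ran from -0.30 to 0.28 and the middle 90% from -0.97 to 0.77. Stat3 was just above the first range and inside the second.

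Stat6 (chromosome 10), the factor of IL-4 and IL-13 responses, measured 57.2 FPKM (WT) and 60.5 FPKM (KO), a difference of 0.08. This was far inside the middle 50% of the 2378 genes with a mean FPKM of 20 to 100, which ran from -0.51 to 0.52. Jak1 lay in the same class, and its difference was as small.

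Stat5a and Stat5b (both chromosome 11), the close paralogs that answer GM-CSF, were at 16.0 and 7.05 FPKM in WT and at 19.1 and 7.07 FPKM in KO. Their differences were 0.24 and 0.00. Stat5a held 69.4% of the total of the pair for WT and 72.9% for KO. Of all 50-base windows in the annotated coding transcripts of Stat5a, 14.7% also occur in Stat5b, so reads from these stretches could have been assigned to either. The sum of the pair, which is not free of that split because the transcripts differ in length, was 23.1 FPKM for WT and 26.1 FPKM for KO, a difference of 0.17.

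Stat5b, Stat5a and Stat3 lie close together on chromosome 11. In the GENCODE M21 annotation of GRCm38, Stat5b runs from 100780731 to 100850724, Stat5a from 100859351 to 100885169 and Stat3 from 100885098 to 100939540. Stat5a and Stat3 are transcribed towards each other and overlap at their 3′ ends. The library protocol does not say that strand was kept, so reads from the overlap cannot be told apart. The submitters' notes name the build mm9, and these coordinates describe GRCm38 only.

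Of the summed FPKM of all 10 genes, Stat3 made up 31.8% for WT and 34.2% for KO, and Stat6 made up 14.5% and 12.9%. Stat2, a factor of type I interferon responses that is not among the 10 genes, was at 11.4 and 18.9 FPKM. Stat4 was listed at 0 in both libraries.

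The feedback inhibitors came last among the 10 genes. Socs3 (chromosome 11), which blocks the gp130 chain of the IL-6 receptor, stood at 99.5 FPKM for WT and 112 for KO, a difference of 0.18. It stood second of the 10 genes in both libraries and made up 81.2% of the total of the SOCS genes and Cish for WT and 86.4% for KO. Socs1 (chromosome 16), the inhibitor of IL-4 and interferon signalling, measured 0.461 FPKM (WT) and 0.123 FPKM (KO). These values rest on an estimated 7.70 and 2.61 fragments. The KO value was below 0.141 FPKM, the level of 3 fragments for a transcript of that length, so a difference in Socs1 was not detectable at this depth.

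Cish (chromosome 9), a classical STAT5 target whose product competes for STAT5 docking sites, had a 0 for WT and 5.29 FPKM for KO. The KO value rests on an estimated 108 fragments, and 3 fragments of Cish in WT would have given 0.186 FPKM. No fold is given, because a listed 0 in this table need not mean absence. A few genes that every cell uses were also listed at 0 in 1 library. Polr2i, a subunit of RNA polymerase II, was at 0 in WT and 23.8 FPKM in KO. Eif2b4, a translation initiation factor, was at 15.7 FPKM (WT) and 0 FPKM (KO). Of 163 genes of the proteasome, RNA polymerase II, ribosome and translation initiation, 4 were at 0 in WT alone and 2 in KO alone. Among 1286 genes whose KO value was 4 to 7 FPKM, 200 (15.6%) had a WT value of 0. Cish entered the comparison only through its KO value, so it had to differ once WT was at 0.

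Cish and Socs3 are both known to be induced by STATs through the palindrome TTCNNNGAA, which reads the same on both strands, and their matches are shown because the 2 genes differed so much in level. RefSeq windows of 250 bases before to 50 bases after a start site (GRCm38.p6) were searched for all 10 genes. Cish holds 2 matches, at positions 1 to 9 and 12 to 20 counted from its RefSeq start site as position 1, inside an exon of 1 of its 5 annotated transcripts. Socs3 holds 1 match, 154 to 146 bases before its RefSeq start site, in an intron of 1 longer annotated transcript. The stretches of 30 bases around them follow 5′ to 3′ on the strand of the gene, Cish at chr9:107296654-107296683 (plus strand) and Socs3 at chr11:117969501-117969530 (minus strand), with the matches in capitals.
Cish: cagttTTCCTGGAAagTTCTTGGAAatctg
Socs3: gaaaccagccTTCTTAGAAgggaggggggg
The same letters occur in a window of 9.55% of the 27025 genes with a RefSeq window, and the windows of the other 8 genes hold no match. The longer palindrome TTCNNNNGAA, preferred by STAT6, was found in 0 of the 10 genes and in a window of 8.01% of those genes.

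Among SOCS genes outside the 10, Socs4 had 10.2 FPKM in the WT library against 6.34 in KO, Socs5 had 4.99 against 3.40, and Socs7 had 7.36 against 2.18. Socs2, also a STAT5 target, was listed at 0 in both libraries. Over the 6 other JAK, STAT and SOCS genes compared, none passed 3-fold, beside 13.6% higher and 13.7% lower over all genes, and the median difference was -0.53, beside 0.03. The median of the same scale was 0.18 for the 9 genes described above.

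**Figure D2:**
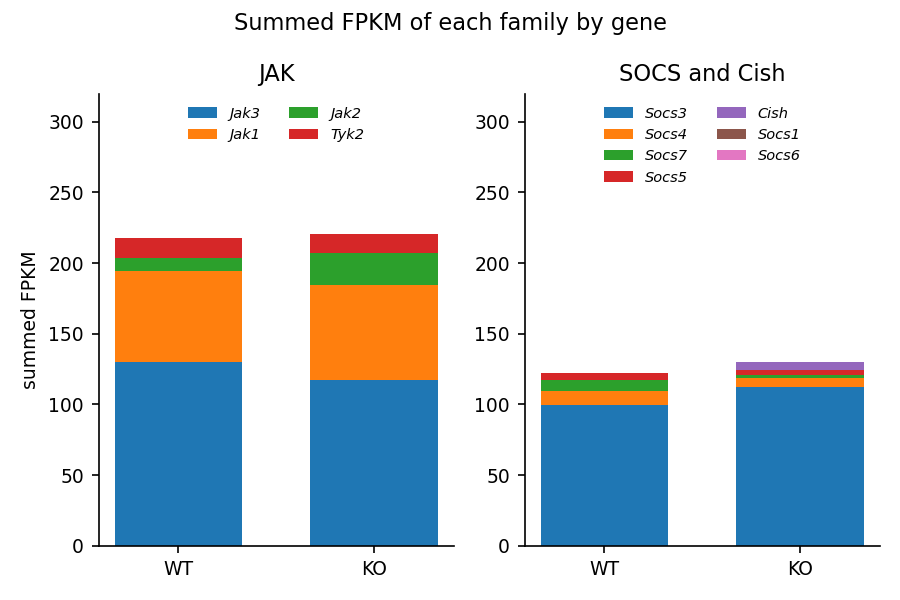
Summed FPKM of the JAK kinases and of the SOCS genes with Cish in the WT and KO libraries, with each bar divided by gene. Jak3 and Socs3 take the largest part of their family in both libraries, and the JAK sums are 218.0 and 220.3 FPKM.

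Each difference was then set beside the spread of all genes at its level. The share of genes past 3-fold in either direction was 2.14% at a mean FPKM of 100 and over, 9.80% at 20 to 100, 26.6% at 5 to 20 and 45.9% under 5. Stat3 and Socs3 belonged to the first class, Jak1 and Stat6 to the second, Jak2, Tyk2, Stat5a and Stat5b to the third, and Cish to the last. The middle 90% of differences in the last class ran from -2.74 to 2.82, and Cish, at 2.65, lay inside it. All 9 genes thus lay inside the middle 90% of their class. That range holds any real difference between the genotypes as well as noise, and it is not a replicate error.

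**Figure D3:**
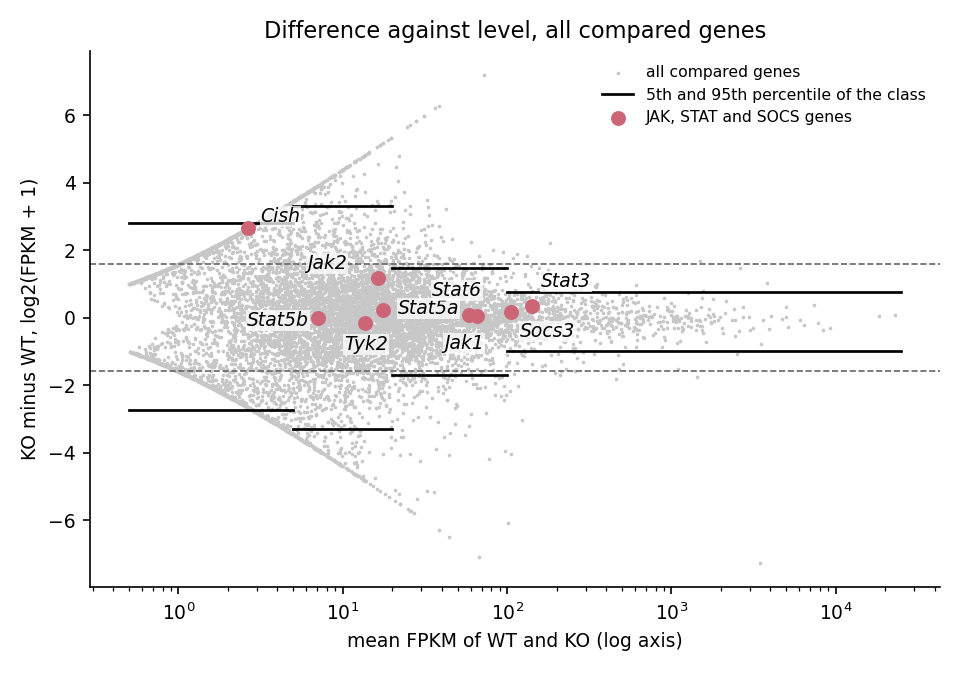
Difference between KO and WT, in log2(FPKM + 1), against the mean FPKM of both libraries on a log axis, for the 10297 genes compared (grey) and the 9 JAK, STAT and SOCS genes (red). Black lines mark the 5th and 95th percentile of each level class and dashed lines mark 3-fold. Cish is the one red point beyond a dashed line and it lies under the black line of its class at 2.82.

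The order of the 10 genes by FPKM was nearly the same in both libraries. In WT it ran Stat3, Socs3, Jak1, Stat6, Stat5a, Tyk2, Jak2, Stat5b, Socs1 and Cish. In KO, Jak2 stood ahead of Stat5a and Tyk2, Cish stood ahead of Socs1, and the other genes kept their places. Jak1 and Stat6 differed from each other by less than the middle 50% of differences between the libraries at their level, as did Stat5a and Tyk2 in WT. Stat3 was higher than 93.9% of the genes compared in WT and 95.3% in KO, and Stat5b was higher than 43.6% and 43.1%.

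The receptors and ligands upstream of the 10 genes were compared to place them in their pathways. Of 16 receptor chains, 15 were compared, of which 13 lay within 3-fold, 0 were higher and 2 were lower in KO, beside 13.6% and 13.7% of all genes. Their median difference was -0.01, against 0.03 for all genes compared, and it was 0.00012 or 0.029 under the other scalings of the libraries. Il4ra, Il6ra and Il10ra, for IL-4, IL-6 and IL-10, were close in both libraries. Il4ra stood at 81.5 FPKM for WT and 92.1 for KO, Il6ra at 67.3 and 78.9, and Il10ra at 64.8 and 72.3. The signal-transducing chain of the IL-6 receptor, Il6st, was at 27.6 and 28.9 FPKM. Other chains used by IL-4 differed more, with Il13ra1 at 4.89 FPKM (WT) and 9.08 FPKM (KO) and Il2rg at 102 and 79.1 FPKM.

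The highest receptor chain was Csf2ra, the ligand-binding chain for GM-CSF, at 378 FPKM (WT) and 340 FPKM (KO). Its signalling partner Csf2rb was at 30.5 and 25.7 FPKM. Csf2rb2, the neighbouring mouse copy that serves IL-3, measured 25.6 FPKM (WT) and 0.396 FPKM (KO), a difference of -4.25. Csf2rb2 entered the comparison only through its WT value, and it was named after its values were seen. Of its 50-base windows, 18.8% also occur in Csf2rb, so the split of reads between the 2 copies is uncertain. Their sum was 56.1 FPKM for WT and 26.1 FPKM for KO, a difference of -1.08.

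Ifnar1, a chain of the type I interferon receptor, was the other one lower in KO, at 41.3 FPKM (WT) and 11.1 FPKM (KO). Its partner Ifnar2 was at 90.7 and 101 FPKM. The interferon-γ receptor chains were at 74.2 and 66.8 FPKM for Ifngr1 and at 34.6 and 14.6 FPKM for Ifngr2, both within 3-fold.

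Taken pathway by pathway, all 7 compared genes for IL-4, all 7 for IL-6 and all 6 for IL-10 were within 3-fold. Over all genes compared, 13.6% were higher and 13.7% lower. Either way, 26.6% passed 3-fold at a mean of 5 to 20 FPKM, 9.80% at 20 to 100 and 2.14% at 100 and over. These sets overlap, with Jak1 and Tyk2 in each of them and Stat3 and Socs3 in those for IL-6 and IL-10. The GM-CSF set also held Csf2rb2, although that copy serves IL-3. Of its 7 genes 5 were within 3-fold, with Cish higher and Csf2rb2 lower, beside 13.6% and 13.7% of all genes. Cish and Csf2rb2 each entered the comparison only through the library where they were high. The median difference of the GM-CSF set was 0.00. In an interferon set of 10 genes, 9 were compared, of which 0 were higher and 1 was lower (Ifnar1), beside the same shares. The median difference of the interferon set was -0.15.

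Several ligand transcripts were not seen in either library. Of 12 ligands, 5 were compared, of which 2 were higher (Il6 and Il11) and 0 were lower, beside 13.6% and 13.7% of all genes. Il11 was listed at 0 in WT and entered only through its KO value. Il4, Il13, Csf2, Ifng and Il3 were listed at 0 in both libraries. Il10 was by far the highest, at 302 FPKM (WT) and 384 FPKM (KO). Il6 had 1.41 FPKM in the WT library against 10.9 in KO, a difference of 2.30 that was past 3-fold. Il6 lies in the class where 26.6% of genes passed it.

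Other brakes on the pathway were compared as a list of 16 phosphatases, PIAS proteins and partners of SOCS proteins. Of the 16, 13 lay within 3-fold, 1 was higher and 2 were lower in KO, beside 13.6% and 13.7% of all genes, and the median difference was 0.08. Ptpn2, a phosphatase that acts on JAK1, JAK3 and STATs, stood at 36.0 FPKM for WT and 10.3 for KO, past 3-fold. Ptpn1 was at 52.3 and 57.5 FPKM and Ptpn6 at 55.5 and 24.0 FPKM.

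SOCS proteins act through a ubiquitin ligase made of elongins B and C, cullin 5 and a RING protein. Eloc, for elongin C, measured 13.9 FPKM (WT) and 49.6 FPKM (KO), and Rnf7, for the RING protein, was at 33.8 and 7.93 FPKM, both past 3-fold and in opposite directions. Ptpn2, Eloc and Rnf7 all lie in the class of 20 to 100 FPKM, where 9.80% of genes passed. Elob, for elongin B, was the highest gene of the list at 258 and 235 FPKM, and Cul5 was at 6.45 and 2.81 FPKM.

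Target genes were examined downstream of each STAT. Of 15 STAT6 targets compared, 1 was higher and 5 were lower in KO, beside 13.6% higher and 13.7% lower over all genes, and the median difference was -0.13. Ccl17, Chil3 and Ccl22 entered only through the library where they were high, and Chil3 and Ccl22 lie in the class under 5 FPKM, where 45.9% of genes passed 3-fold. Retnla, the highest of them, had 22302 FPKM in the WT library against 23753 in KO, beside a Stat6 difference of 0.08. Pparg, a lipid-sensing nuclear receptor, was at 36.4 and 7.78 FPKM, and Tgm2, a transglutaminase, at 28.5 and 8.03 FPKM. The targets thus went separate ways, with Retnla level and Pparg and Tgm2 past 3-fold lower.

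Of 15 STAT3 targets compared, 13 lay within 3-fold, 1 was higher and 1 was lower, beside 13.6% and 13.7% of all genes, and the median difference was -0.01, and 0.0070 or 0.036 under the other scalings. The lower one, Saa3, was under 1 FPKM in KO and entered only through its WT value. Junb, the highest of them, measured 1073 FPKM (WT) and 1076 FPKM (KO), and Bcl3, a nuclear IκB protein, was at 141 and 224 FPKM. Myc, a growth regulator, had 11.4 FPKM in the WT library against 37.3 in KO, past 3-fold.

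Of 11 STAT5 targets compared, 8 lay within 3-fold, 3 were higher and 0 were lower, beside 13.6% and 13.7% of all genes, and the median difference was -0.15. Of the 3, Ccl17 was listed at 0 in WT and entered only through its KO value. Myc belongs to this list as well. Bcl2l1, which encodes the survival protein BCL-XL, stood at 20.4 FPKM for WT and 65.1 for KO. Pim1, a kinase induced by STATs, measured 257 FPKM (WT) and 255 FPKM (KO), and Mcl1, the highest of the list, was at 518 and 468 FPKM.

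**Figure D4:**
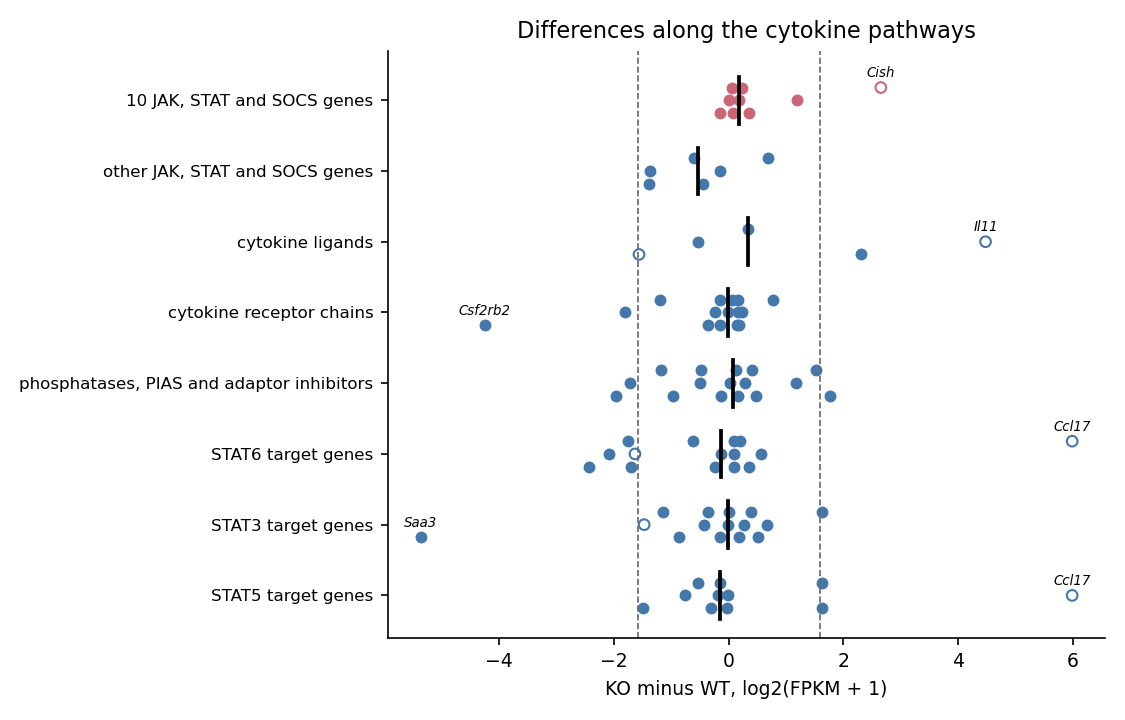
Difference between KO and WT, in log2(FPKM + 1), for each compared gene of the 10 JAK, STAT and SOCS genes (red) and of the pathway lists (blue). Open circles are genes listed at 0 in a library, black bars are list medians and dashed lines mark 3-fold, and the genes farthest from 0 are named. The black bars lie between -0.53 and 0.34.

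Among the lists of other cell types, dendritic cell markers summed to 165 FPKM for WT and 169 FPKM for KO, with Cd209a highest at 122 and 131 FPKM. B cell markers summed to 2.75 and 6.46 FPKM, with Cd79a highest in WT at 2.50 FPKM and Cd79b highest in KO at 5.52 FPKM. Adipocyte markers summed to 95.9 and 100.1 FPKM, nearly all of it Fabp4, with Adipoq and Plin1 at 0 in both. Endothelial and fibroblast markers summed to 56.8 FPKM for WT and 99.97 FPKM for KO, led by Dcn at 35.0 and 62.3 FPKM. Of the 9 genes in that list, 8 were compared. All 8 had the larger value in KO, and 2 were past 3-fold, beside 13.6% higher over all genes. These were Col1a2, at 0.0948 and 4.75 FPKM, and Pdgfra, at 0.0246 and 4.98 FPKM. Both entered only through their KO values, so the filter fixed their direction. Tek was left out by the filter and went the other way, with 0.386 FPKM for WT against a listed 0 for KO. How many of all genes had the larger value in KO was not counted. The part of such cells in the values of the 10 genes was not tested.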

How the data were processed

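RNA from sorted ATM was sequenced as 1 WT and 1 KO library. The authors deposited a single table of FPKM per Ensembl gene. The submitters' processing notes name CASAVA 1.8.2, TopHat2 2.0.9, Cufflinks 2.2.1 and the build mm9. The annotation and filters are not given in the sources used here. Its mutant column was read as KO, the only label it can match.

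Of 20749 rows, 401 full repeats were dropped and 18 further rows of an identifier were summed. Symbols from GENCODE M21 matched 20035 identifiers, and all 10 genes. Genes reaching 1 FPKM in either library were compared as log2(FPKM + 1), KO minus WT. The pseudocount of 1 understates differences of low genes. Differences past 3-fold on that scale were called higher or lower. With 1 library per genotype no test was run. Level classes were cut at a mean FPKM of 5, 20 and 100.

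One fragment was taken as the smallest recurring FPKM times kilobases in genes with 1 annotated transcript, 0.170 in WT (19 genes) and 0.134 in KO (20 genes). Fragment numbers are estimates, and floors of 3 fragments cover counting error only. Promoter windows came from RefSeq (GRCm38.p6). All 10 genes had a window.

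Named genes were the 10 genes, pathway genes past 3-fold that reached 1 FPKM in each library, and the highest gene of each list. Other genes of the same complexes and receptors were added for context, and a few listed genes are not reported here. The genes and lists were chosen with earlier results of these data known. The calling step was tried on simulated data with 4-fold differences put in, which does not give its error on these libraries. Alternatives were another pseudocount, filter, scaling, threshold and treatment of repeated identifiers. Python 3.11.15, pandas 2.3.3 and numpy 2.4.6 were used.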

Additional observations from a re-analysis of the deposited data

How the results depend on the processing

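No paired analysis was possible because WT and KO are single libraries. The number of JAK, STAT and SOCS genes higher in KO was 1 in the report, 2 with a 2-fold threshold, where Jak2 joined Cish and 23.1% of all genes compared were higher, and 0 when each library had to reach 1 FPKM, a filter that leaves Cish out and under which 5.66% were higher. The number lower in KO was 0 under every alternative. The median difference of the compared genes lay between 0.13 and 0.22. Of 53 recomputed differences of single genes among the 10, 52 moved by under 1.5-fold and 0 took the other sign; the exception was Cish, at 5.75 with a pseudocount of 0.1. Of 140 recomputed values of other genes and lists, 3 moved by more, all with the pseudocount of 0.1, for Csf2rb2, Ccl17 and Saa3. Scaling to an equal sum shifted KO by 0.04 and to the upper quartile by 0.01 on the log2 scale. Over all genes, the counts of 1402 higher and 1413 lower became 429 and 447 under the filter on each library and 2380 and 2314 with the 2-fold threshold. Without replicates the error of a difference is unknown, and at a mean FPKM under 20, where Jak2, Tyk2, Stat5a, Stat5b and Cish lie, the libraries differed widely over all genes.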

Other observations

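Some genes beyond the naming rule stood out along these pathways and were picked after their values were seen. Ccl17, a chemokine induced by STAT6 and by GM-CSF through STAT5, had a 0 for WT and 62.5 FPKM for KO, the widest difference in both target lists. Il11, a cytokine of the IL-6 family that signals through STAT3, had a 0 for WT and 21.3 FPKM for KO. Saa3, an acute-phase gene induced by STAT3, had 56.1 FPKM in the WT library against 0.380 in KO. Chil3 and Ccl22, both IL-4 responsive, were at 2.10 and 2.62 FPKM in WT and at 0 and 0.0777 FPKM in KO. Lif, another IL-6 family cytokine, was at 1.95 FPKM in WT and listed at 0 in KO, while the receptor chain Lifr was at 63.8 and 63.2 FPKM. Zbtb46, a dendritic cell factor, had a 0 for WT and 9.45 FPKM for KO, and Flt3 was at 0 and 0.0362 FPKM.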
